A study of Mus musculus with 20 samples.

Results

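The genes described here are 9 astrocyte transporters, channels and gap junction subunits, namely Slc1a2, Slc1a3, Slc6a11, Slc7a10, Glul, Kcnj10, Atp1b2, Gja1 and Gjb6. They were picked by symbol, and all 9 were among the 16003 genes of the single-cell count table. The 6 libraries came from C57BL/6J female mice aged 8 to 10 weeks, fed Vehicle chow or chow with PLX5622 at 1200 ppm, a Csf1r antagonist that depletes microglia, for 2 weeks before surgery and until the end point. Mice of each diet had a sham operation (laminectomy) or a T9 contusion SCI, and injured cords were taken at 7 or 28 dpi, while the label of each sham library names both days. Each library pooled 1 cm of unperfused, dissociated cord, centered on T9, from 3 to 4 mice, after myelin and dead cells had been removed. The 1200 ppm is taken from the labels, and a smaller ppm figure also stands in the published methods. The paper reports that the diet left circulating myeloid cells undepleted, and it names effects on macrophages derived from monocytes as a possibility. A difference between the diets is therefore not assigned here to the loss of microglia alone.

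There was 1 library per condition. Cells are not animals, so no test between conditions was made, differences have no replicate check, and all intervals below are 95% intervals that cover counting error only. Levels are UMIs (captured transcripts) of a gene summed over the cells of a cluster in a library and scaled to the total of those cells, as CPM (counts per 1000000). Contrasts are given as the log2 of the CPM in one library over that in another, within a cluster. Both injured libraries of a diet were compared with the same sham library. Levels were compared between libraries and between clusters within a gene. Where the UMIs or CPM of different genes stand side by side, as in shares within a pair, this is a description.

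Astrocytes take up glutamate and GABA that neurons release, turn glutamate into glutamine, and carry away the potassium that firing leaves outside cells. Gap junctions join them into a network through which ions and small metabolites spread. After spinal injury astrocytes become reactive, with more intermediate filament and a changed set of membrane proteins, and loss of glutamate and potassium clearance is a known feature of many lesions. In the GENCODE annotation of GRCm38 all 9 genes are protein coding. The uptake carriers are Slc1a2 (chr2:102658659-102790784, plus strand), Slc1a3 (chr15:8634124-8710764, minus) and Slc6a11 (chr6:114131241-114249952, plus). Slc7a10 lies at chr7:35186385-35201114 (plus) and Glul at chr1:153899944-153909723 (plus). The potassium genes are Kcnj10 (chr1:172341210-172374085, plus) and Atp1b2 (chr11:69599736-69605942, minus), and the connexins are Gja1 (chr10:56377330-56402513, plus) and Gjb6 (chr14:57123303-57133611, minus).

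The 250 bases before the transcript start, from RefSeq on GRCm38.p6, are shown for Slc7a10, the member that was lowest against sham in all 4 injured libraries, and for the connexins Gja1 and Gjb6, whose balance differed between sham and injured libraries. Capitals mark matches to the motifs searched on both strands. The windows are chr7:35186135-35186384 (plus strand), chr10:56377050-56377299 (plus) and chr14:57133612-57133861 (minus), written 5' to 3' on the strand of the gene.
Slc7a10: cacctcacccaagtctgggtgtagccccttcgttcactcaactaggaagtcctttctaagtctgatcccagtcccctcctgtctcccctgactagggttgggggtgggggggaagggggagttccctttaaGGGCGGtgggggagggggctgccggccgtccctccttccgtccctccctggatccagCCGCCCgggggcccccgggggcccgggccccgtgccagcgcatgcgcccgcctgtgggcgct
Gja1: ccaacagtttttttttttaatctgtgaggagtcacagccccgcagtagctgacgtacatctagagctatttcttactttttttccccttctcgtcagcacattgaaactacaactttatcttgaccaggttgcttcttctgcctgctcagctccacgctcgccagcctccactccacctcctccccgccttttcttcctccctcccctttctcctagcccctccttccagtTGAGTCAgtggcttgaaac
Gjb6: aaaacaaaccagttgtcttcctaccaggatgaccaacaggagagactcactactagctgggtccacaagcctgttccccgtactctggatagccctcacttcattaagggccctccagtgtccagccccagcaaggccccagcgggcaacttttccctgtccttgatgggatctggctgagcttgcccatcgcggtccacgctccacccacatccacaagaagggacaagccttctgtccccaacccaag
The motifs were TTGGC (NFI site motif, in 41.5% of 32851 promoters of this length), GGGCGG (GC box, 32.7%), TGANTCA (AP-1, 6.75%) and TTCNNNGAA (STAT, 7.02%), and no motif contains another. The Slc7a10 window held 2 GC boxes, the Gja1 window held 1 AP-1 match, and the letters of none of the 4 motifs were found in the Gjb6 window. GC content was 69.6% for Slc7a10, 50% for Gja1 and 56.8% for Gjb6, and the median over all promoters was 52.4% (quartiles 45.2 to 61.2%). Windows were found for 8 of the 9 members, and that of Atp1b2 was not used here. A match of letters is a description and not a binding site.

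The cells carried 14 cluster numbers. Cluster 4 is called astrocyte-like, because 8 of 10 astrocyte markers fixed for it (among them Aldoc, Aldh1l1, Fgfr3, Agt, Gfap, Aqp4 and Cldn10) had their highest CPM there, while Sox9 was highest in the ependymal-like and S100b in the oligodendrocyte lineage-like cluster. It held 974 of 21016 cells. The sham, 7 dpi and 28 dpi Vehicle libraries gave 310, 69 and 245 of them (17.3, 0.928 and 2.49% of their cells), and the PLX5622 libraries gave 204, 39 and 107 (41.5, 7.74 and 11.4%). UMIs of the cluster were 779726, 183753 and 414104 under Vehicle and 585992, 105018 and 151572 under PLX5622, with medians per cell of 1054 to 2057. Barcodes found in more than 1 library numbered 44 among all cells.

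The injured Vehicle libraries stood apart in this cluster. Cells with 3 or more UMIs summed over the myeloid genes C1qa, C1qb, C1qc, Tyrobp and Fcer1g numbered 32 among 69 at 7 dpi (46.4%, interval 34.3 to 58.8%) and 109 among 245 at 28 dpi (44.5%), against 10 of 310 in Vehicle sham (3.23%, 1.56 to 5.85%) and 4 cells in each PLX5622 library. These cells held 69.8% and 64.2% of the UMIs of the cluster at 7 and 28 dpi, 4.00% in Vehicle sham and 0.540 to 7.83% under PLX5622. The summed level of the 5 myeloid genes was 1154, 15662 and 14960 CPM in the Vehicle libraries and 80.2, 1571 and 607 CPM in the PLX5622 libraries. Over 6 microglia markers it was 835, 3265 and 3547 CPM and then 155, 448 and 337 CPM. P2ry12 and Tmem119 were at 0 in the 7 dpi PLX5622 library, where 3 UMIs would be 28.6 CPM, and Tmem119 and Siglech at 0 in the 28 dpi PLX5622 library, where 3 UMIs would be 19.8 CPM. Over 5 markers of macrophages derived from monocytes it was 926, 13039 and 10435 CPM and then 927, 2619 and 1412 CPM. The levels and ratios of the members in cluster 4 are therefore given over all its cells and over the cells with fewer than 3 myeloid UMIs, called myeloid-low cells, of which the Vehicle libraries kept 300, 37 and 136 and the PLX5622 libraries 200, 35 and 103. Myeloid-low cells still held 119, 866 and 829 CPM of the 5 myeloid genes under Vehicle and 36.0, 145 and 228 CPM under PLX5622. Only 8 of the 37 and 50 of the 136 injured Vehicle cells had no myeloid UMI. The myeloid-low sets are thus not matched in myeloid UMIs between libraries.

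In the same injured libraries all 9 members were lower in the cells with 3 or more myeloid UMIs than in the others. At 7 dpi under Vehicle Slc1a2 was at 3779 CPM in these cells and at 17305 CPM in myeloid-low cells, and C1qa at 5789 and 126 CPM. At 28 dpi Slc1a2 was at 2378 and 11075 CPM, and C1qa at 7131 and 243 CPM. Over the 9 members and both times the log2 ratio of these cells over myeloid-low cells ran from -2.86 to -1.72. The myeloid genes chose the cells, so their own difference is given as a description. The cells with 3 or more myeloid UMIs were also deeper in these libraries. Their median was 3260 UMIs against 1241 in myeloid-low cells at 7 dpi, and 1867 against 994.5 at 28 dpi. In Vehicle sham the medians were 1806 and 2024. The limit thus also split the injured Vehicle cells by depth, and the part of depth in these differences was not tested.

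Slc1a2 codes for GLT-1, the main glutamate carrier of astrocytes. In sham, 7 dpi and 28 dpi libraries its level was 6357, 7858 and 5494 CPM under Vehicle, and 6191, 7913 and 9263 CPM under PLX5622. The sham libraries were close together, the 7 dpi libraries were above them in both diets, and at 28 dpi the diets lay on opposite sides of their shams, although the Vehicle ratio turned to 0.07 with TMM and 0.06 with DESeq2 scaling factors. The log2 ratios over sham were 0.31 (0.22 to 0.39) and -0.21 (-0.28 to -0.14) at 7 and 28 dpi under Vehicle, and 0.35 (0.24 to 0.46) and 0.58 (0.49 to 0.67) under PLX5622. In myeloid-low cells its level was 6517, 17305 and 11075 CPM under Vehicle and 6187, 8420 and 9202 CPM under PLX5622, so every injured library was above its sham. The ratios were then 1.41 (1.31 to 1.51) and 0.77 (0.68 to 0.85) under Vehicle and 0.45 (0.33 to 0.56) and 0.57 (0.48 to 0.66) under PLX5622.

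Slc1a3 codes for GLAST, the second glutamate carrier of astrocytes, which radial glia also carry. Its level was 250, 686 and 452 CPM in the sham, 7 dpi and 28 dpi Vehicle libraries and 270, 448 and 805 CPM in the PLX5622 libraries. All 4 injured libraries were above the sham of their diet and the intervals of the ratios did not reach 0. Over all cells the 7 dpi library was 2.74-fold and the 28 dpi library 1.81-fold above sham under Vehicle (log2 ratios 1.46, 1.12 to 1.79, and 0.85, 0.56 to 1.15). Under PLX5622 the folds were 1.66 and 2.99 (log2 ratios 0.73, 0.23 to 1.21, and 1.58, 1.23 to 1.93). The value at 7 dpi under PLX5622 rests on 47 UMIs. Among myeloid-low cells the level was 247, 1660 and 998 CPM under Vehicle and 271, 475 and 821 CPM under PLX5622, or 6.72-fold and 4.04-fold above sham under Vehicle and 1.75-fold and 3.03-fold under PLX5622. Among genes that reached 50 UMIs in each pair compared, 99.7% and 99.8% had a lower ratio than Slc1a3 in myeloid-low Vehicle cells, and 88.0% and 98.7% under PLX5622.

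Slc6a11 codes for GAT-3, a GABA carrier of astrocyte processes. Its level was 1000, 620 and 635 CPM under Vehicle and 1418, 1400 and 1762 CPM under PLX5622. Both injured Vehicle libraries were below sham over all cells, and the PLX5622 libraries were level with sham or above it. The log2 ratios were -0.69 (-0.99 to -0.40) and -0.66 (-0.86 to -0.45) under Vehicle, and -0.02 (-0.28 to 0.24) and 0.31 (0.11 to 0.51) under PLX5622. In myeloid-low cells all 4 were above 0, at 0.55 and 0.41 under Vehicle and 0.09 and 0.35 under PLX5622, from levels of 1022, 1498 and 1355 CPM and of 1422, 1508 and 1814 CPM.

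Slc7a10 codes for Asc-1, an exchanger of small neutral amino acids that carries glycine and D-serine. Its level was 3368, 414 and 874 CPM in the sham, 7 dpi and 28 dpi Vehicle libraries and 3809, 1276 and 1788 CPM in the PLX5622 libraries. Both sham libraries were well above all 4 injured ones, the 7 dpi library was the lowest of its diet, and the 28 dpi library lay between. Over all cells the level was 8.14-fold lower at 7 dpi and 3.85-fold lower at 28 dpi under Vehicle (log2 ratios -3.03, -3.37 to -2.70, and -1.95, -2.11 to -1.79). Under PLX5622 it was 2.99-fold and 2.13-fold lower (log2 ratios -1.58, -1.84 to -1.33, and -1.09, -1.28 to -0.91). It was the lowest member in each of these comparisons, and 1.73, 1.71, 3.73 and 5.45% of the genes compared had a lower ratio.

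In myeloid-low cells Slc7a10 was at 3459, 920 and 1618 CPM under Vehicle and at 3811, 1374 and 1862 CPM under PLX5622. The injured libraries of both diets thus stayed below sham, and the levels of the diets were closer to each other than over all cells. The folds were 3.76 and 2.14 lower under Vehicle (log2 ratios -1.91, -2.34 to -1.51, and -1.10, -1.29 to -0.91) and 2.77 and 2.05 lower under PLX5622 (log2 ratios -1.47, -1.74 to -1.22, and -1.03, -1.22 to -0.85).

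Glul codes for glutamine synthetase, which turns the glutamate taken up into glutamine. Its level was 1116, 1507 and 1123 CPM under Vehicle and 1389, 1838 and 2032 CPM under PLX5622. No injured library was below its sham. The log2 ratios were 0.43 (0.23 to 0.63) and 0.01 (-0.16 to 0.17) under Vehicle and 0.40 (0.17 to 0.63) and 0.55 (0.36 to 0.74) under PLX5622, where the second Vehicle interval spans 0. In myeloid-low cells the level was 1095, 3320 and 2144 CPM under Vehicle, with ratios of 1.60 and 0.97, and 1385, 1973 and 2063 CPM under PLX5622, with ratios of 0.51 and 0.58.

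Kcnj10 codes for Kir4.1, the inward rectifier through which astrocytes take up potassium. Its level was 922, 996 and 708 CPM under Vehicle and 812, 1038 and 1009 CPM under PLX5622. These levels were among the most even of the members. The log2 ratios were 0.11 (-0.13 to 0.35) and -0.38 (-0.58 to -0.18) under Vehicle and 0.35 (0.04 to 0.66) and 0.31 (0.04 to 0.58) under PLX5622. Kcnj10 in myeloid-low cells was at 934, 1949 and 1355 CPM under Vehicle and at 812, 1095 and 1000 CPM under PLX5622, with ratios of 1.06, 0.54, 0.43 and 0.30 in the same order.

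Atp1b2 codes for the glial beta subunit of the Na,K-ATPase, the pump that supplies the sodium gradient for glutamate uptake. Its level was 5111, 1769 and 2811 CPM under Vehicle and 6251, 4485 and 7092 CPM under PLX5622. In both diets the 7 dpi library was the lowest, and at 28 dpi the PLX5622 library was above its sham and the Vehicle library below. The log2 ratios were -1.53 (-1.70 to -1.37) and -0.86 (-0.96 to -0.77) under Vehicle and -0.48 (-0.62 to -0.34) and 0.18 (0.08 to 0.28) under PLX5622. In myeloid-low cells the diets were alike in order, with 5260, 3753 and 5730 CPM under Vehicle and 6263, 4742 and 7319 CPM under PLX5622, and ratios of -0.49 and 0.12 and of -0.40 and 0.23.

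Gja1 codes for connexin 43, the main gap junction protein of astrocytes. Its level was 2418, 898 and 1425 CPM under Vehicle and 2278, 2304 and 2890 CPM under PLX5622. Over all cells the injured Vehicle libraries were below sham and the PLX5622 libraries were not. The log2 ratios were -1.43 (-1.67 to -1.20) and -0.76 (-0.90 to -0.63) under Vehicle and 0.02 (-0.19 to 0.22) and 0.34 (0.18 to 0.50) under PLX5622. Myeloid-low cells had 2485, 1877 and 3020 CPM under Vehicle and 2287, 2469 and 3001 CPM under PLX5622, so at 28 dpi the diets were level. These gave ratios of -0.41 (-0.70 to -0.12) and 0.28 (0.13 to 0.43) under Vehicle and 0.11 (-0.09 to 0.31) and 0.39 (0.23 to 0.55) under PLX5622.

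Gjb6 codes for connexin 30, the other large astrocyte connexin, which pairs with connexin 43 in gray matter. Its level was 1477, 337 and 659 CPM under Vehicle and 1389, 848 and 1095 CPM under PLX5622. It was below sham in all 4 injured libraries, and 7 dpi was the lowest time in each diet. The log2 ratios were -2.13 (-2.52 to -1.76) and -1.16 (-1.36 to -0.97) under Vehicle and -0.71 (-1.05 to -0.40) and -0.34 (-0.59 to -0.10) under PLX5622. In myeloid-low cells the level was 1514, 848 and 1193 CPM under Vehicle and 1390, 920 and 1138 CPM under PLX5622. The ratios stayed below 0, at -0.84 (-1.29 to -0.42) and -0.34 (-0.58 to -0.11) under Vehicle and -0.60 (-0.93 to -0.28) and -0.29 (-0.54 to -0.05) under PLX5622.

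**Figure D1:**
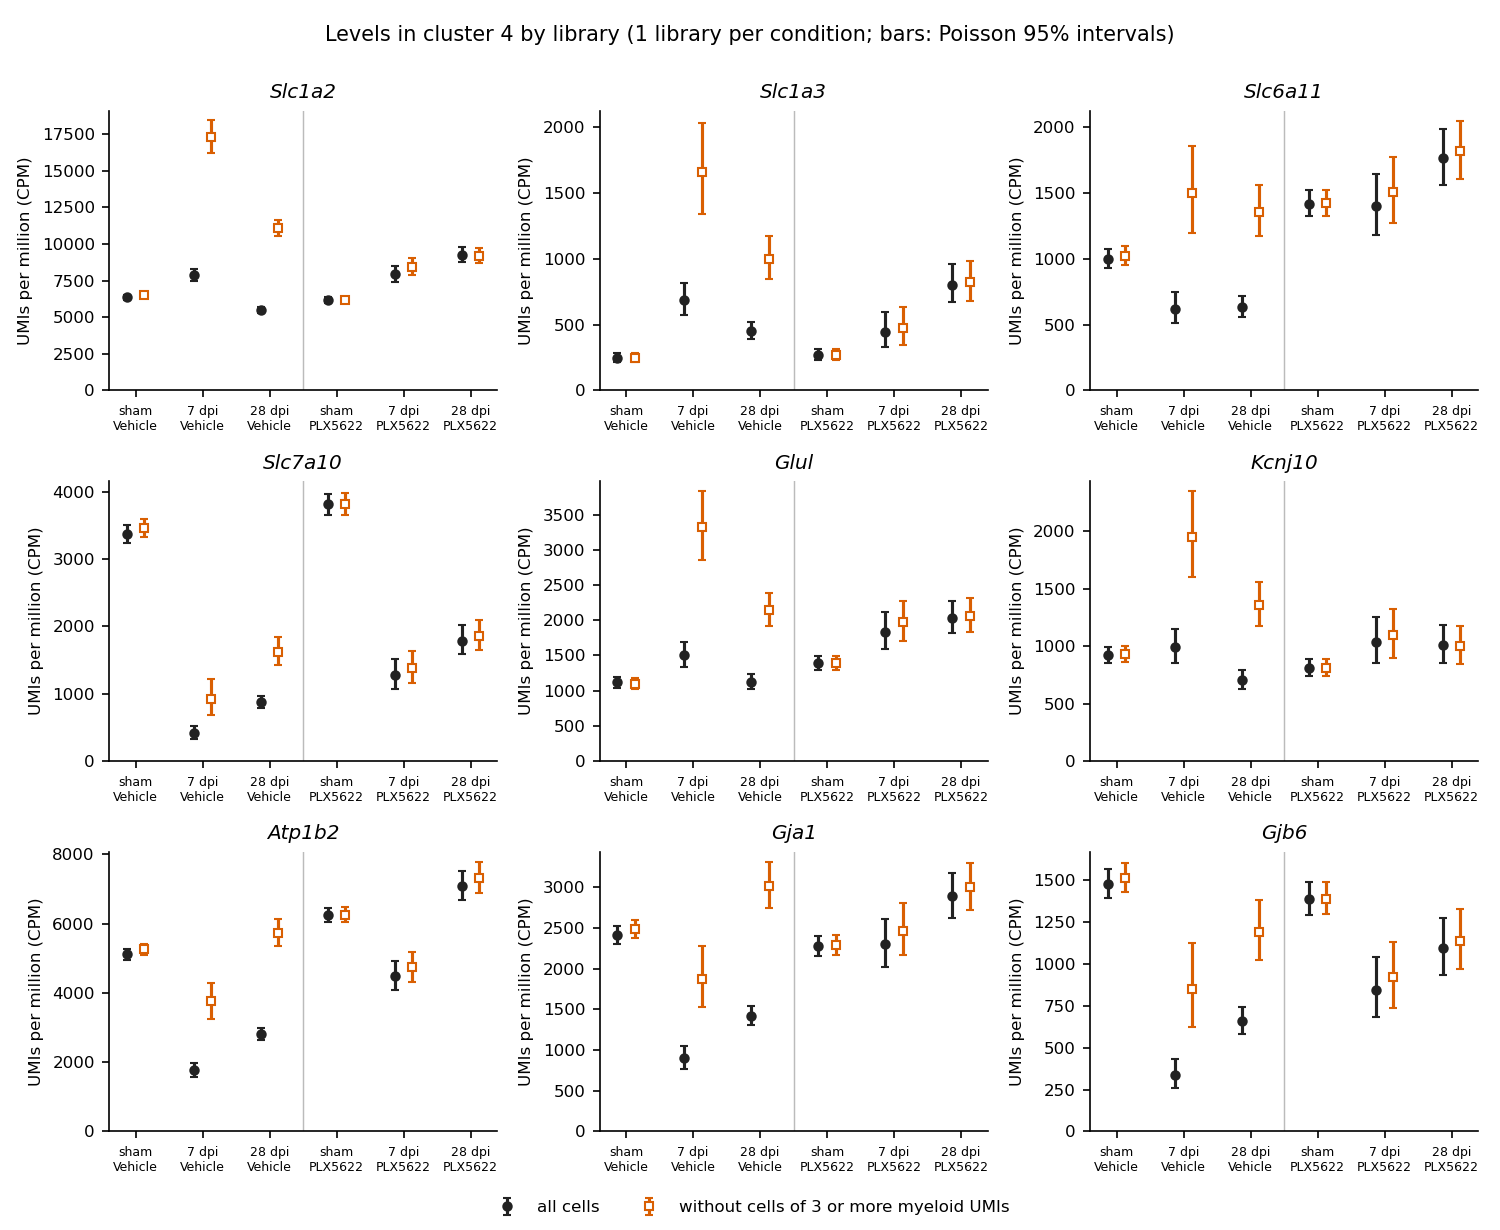
Each panel plots the level of 1 member in cluster 4 (CPM, linear axis from 0) for the sham, 7 dpi and 28 dpi libraries of Vehicle and PLX5622 mice, over all cells (filled circles) and without cells of 3 or more myeloid UMIs (open squares), with Poisson 95% intervals. Slc7a10 was highest in both sham libraries in either set of cells, and the sets lay far apart only in the injured Vehicle libraries, as for Slc1a2 at 7 dpi (7858 and 17305 CPM).

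Set against all genes, members lay on both sides of the background. At 7 dpi under Vehicle 3232 genes had at least 50 UMIs in both libraries together. Of these 29.3% were at least 2-fold lower and 11.9% at least 2-fold higher than in sham, and of the 9 members 4 were past 2-fold lower (Slc7a10, Gjb6, Atp1b2 and Gja1) and 1 higher (Slc1a3). The share lower among the members was thus somewhat above the background and the share higher close to it. The median log2 ratio was -0.69 over the members and -0.41 over all genes. At 28 dpi under Vehicle 2 members were past 2-fold lower (Slc7a10 and Gjb6) and none higher, with a background of 16.9 and 11.3% of 3928 genes and medians of -0.66 and -0.31.

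Under PLX5622 the background was smaller. At 7 dpi Slc7a10 alone was past 2-fold lower and no member was past 2-fold higher, beside 11.4% of 2385 genes lower and 8.76% higher, with medians of 0.02 over the members and -0.03 over all genes. At 28 dpi Slc7a10 was past 2-fold lower and Slc1a3 higher, beside 6.63 and 5.25% of 2608 genes, with medians of 0.31 and 0.05. One gene of 9 is close to these shares.

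In myeloid-low cells the Vehicle comparisons differed from those over all cells. At 7 dpi 1 member was past 2-fold lower (Slc7a10; background 19.0%) and 4 were past 2-fold higher (Slc1a3, Glul, Slc1a2 and Kcnj10; background 11.8%), and the median of the members was 0.55 against -0.13 over all genes. At 28 dpi Slc7a10 was lower and Slc1a3 higher (background 7.33 and 5.62%), with medians of 0.41 and -0.02. Under PLX5622 Slc7a10 was again the 1 member past 2-fold lower at 7 dpi and none was higher (background 10.3 and 7.45%, medians 0.11 and 0.01). At 28 dpi Slc7a10 was lower and Slc1a3 higher (background 6.32 and 5.42%, medians 0.35 and 0.06).

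**Figure D2:**
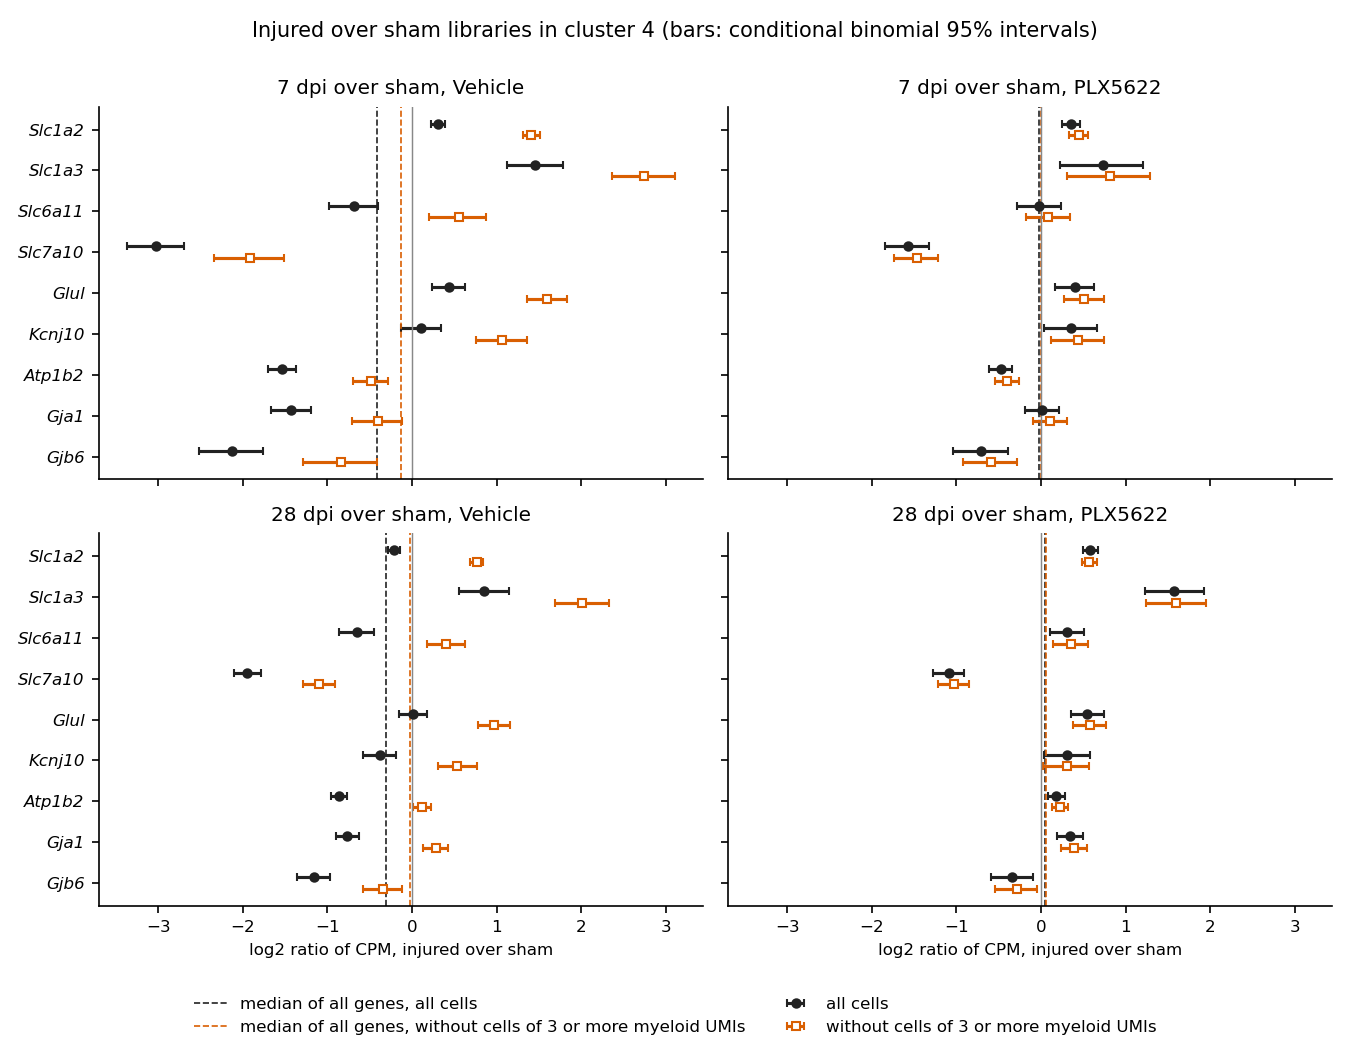
Each panel plots the log2 ratio of CPM of an injured over the sham library of its diet for the 9 members in cluster 4, over all cells (filled circles) and without cells of 3 or more myeloid UMIs (open squares), with conditional binomial 95% intervals and dashed lines at the median of all genes. Slc7a10 and Gjb6 were below 0 and Slc1a3 above 0 in all 4 panels for both sets of cells, while the sets differed for all members under Vehicle and little under PLX5622.

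The diets were also compared directly at each stage. In sham cords all 9 members were within 2-fold between the diets, and the largest log2 ratio of PLX5622 over Vehicle was that of Slc6a11 (0.50, 0.36 to 0.65). The background past 2-fold was 1.22% lower and 1.18% higher, and the medians were 0.11 over the members and 0.02 over all genes. At 7 dpi 5 members were past 2-fold higher under PLX5622 (Slc7a10, Gja1, Atp1b2, Gjb6 and Slc6a11) and none lower, beside 22.3% of genes lower and 18.1% higher, with medians of 1.17 and 0.19. At 28 dpi 4 members were past 2-fold higher (Slc6a11, Atp1b2, Slc7a10 and Gja1) and none lower, beside 17.4 and 19.4%, with medians of 0.86 and 0.27. The share higher was thus over the background at both times.

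This excess was not seen in myeloid-low cells. In sham cords no member was past 2-fold there (background 0.685% lower and 1.07% higher, medians 0.13 and 0.02). At 7 dpi 2 members were past 2-fold lower under PLX5622, Slc1a3 (-1.81, -2.35 to -1.28) and Slc1a2 (-1.04, -1.18 to -0.90), and none higher (background 4.56 and 6.47%, medians 0.01 and -0.06). At 28 dpi no member was past 2-fold (background 2.13 and 5.70%, medians -0.06 and -0.01). The ratios of Slc7a10 at these times were 1.63 (1.21 to 2.05) and 1.03 (0.80 to 1.26) over all cells and 0.58 (0.10 to 1.07) and 0.20 (-0.05 to 0.46) in myeloid-low cells. The part of myeloid UMIs in the difference between the diets was not tested beyond these values, and the injured Vehicle values in myeloid-low cells rest on 37 and 136 cells.

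Shares within pairs of members need no scaling between libraries. Gjb6 made up 37.9% (36.2 to 39.7%) of the connexin UMIs of Gjb6 and Gja1 in the Vehicle sham library and 37.9% (35.8 to 40%) in the PLX5622 sham library. The injured libraries were lower, with 27.3% (21.6 to 33.6%) and 31.6% (28.5 to 34.9%) at 7 and 28 dpi under Vehicle and 26.9% (22.2 to 32.0%) and 27.5% (24.0 to 31.2%) under PLX5622. No interval of an injured library overlapped that of its sham, and in myeloid-low cells, with 37.9, 31.1 and 28.3% under Vehicle and 37.8, 27.1 and 27.5% under PLX5622, only the 7 dpi Vehicle interval (23.9 to 39.2%) did.

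Slc1a3 was 3.79% (3.28 to 4.34%) of the UMIs of both glutamate carriers in Vehicle sham and 4.17% (3.56 to 4.86%) in PLX5622 sham. It made up 8.03% and 7.60% at 7 and 28 dpi under Vehicle, and 5.35% (3.96 to 7.06%) and 8.00% under PLX5622. The 7 dpi PLX5622 interval overlapped that of its sham and the other 3 injured libraries were above theirs. Shares in myeloid-low cells were 3.65, 8.75 and 8.26% under Vehicle and 4.20, 5.34 and 8.19% under PLX5622.

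Slc7a10 made up 77.1% of the UMIs of Slc7a10 and Slc6a11 in Vehicle sham and 72.9% in PLX5622 sham. In the injured libraries it was 40% and 57.9% under Vehicle and 47.7% and 50.4% under PLX5622, and in myeloid-low cells 38.1, 54.4, 47.7 and 50.7%. Kcnj10 was 15.3, 36.0 and 20.1% of the UMIs of Kcnj10 and Atp1b2 under Vehicle and 11.5, 18.8 and 12.5% under PLX5622, highest at 7 dpi in each diet. In myeloid-low cells these shares were 15.1, 34.2 and 19.1% and 11.5, 18.8 and 12.0%. All 4 pairs were thus within a few percentage points of the same value with and without the cells that carried myeloid UMIs. Outside the injured Vehicle libraries the limit removed only 10 cells in Vehicle sham and 4 in each PLX5622 library, so the sets there could hardly differ. In the injured Vehicle libraries, where it removed 32 and 109 cells, the Gjb6 share went from 27.3 to 31.1% at 7 dpi and from 31.6 to 28.3% at 28 dpi.

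**Figure D3:**
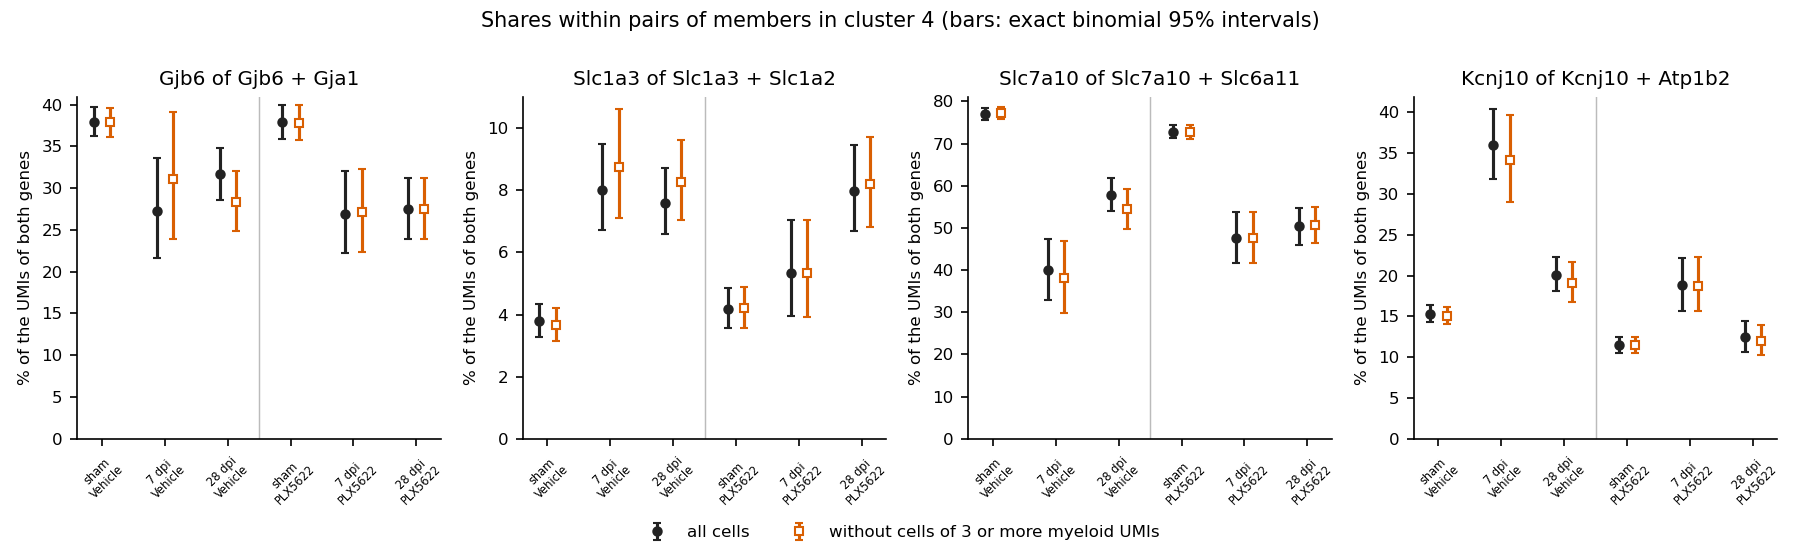
Each panel plots the share (% of the UMIs of both genes, linear axis from 0) of 1 member within a pair in cluster 4 for each of the 6 libraries, over all cells (filled circles) and without cells of 3 or more myeloid UMIs (open squares), with exact binomial 95% intervals. The Gjb6 share was 37.9% in both sham libraries over all cells and 26.9 to 31.6% in the injured ones. The 2 sets, nearly the same cells outside the injured Vehicle libraries, gave shares close to each other.

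The share of cells with a UMI was taken after each cell was thinned to 1000 UMIs, which left 220, 25 and 67 myeloid-low cells of Vehicle and 127, 21 and 54 of PLX5622 libraries. Slc7a10 was found in 92.7, 56.0 and 74.6% of these cells under Vehicle and in 94.5, 76.2 and 72.2% under PLX5622. Its interval at 7 dpi was 34.9 to 75.6% under Vehicle and 52.8 to 91.8% under PLX5622. At 28 dpi it was 62.5 to 84.5% and 58.4 to 83.5%, so in these cells the intervals at 7 and 28 dpi overlapped in each diet. Over all cells the thinned shares were 94.7, 35.3 and 60.5% and 94.5, 66.7 and 67.9%, and without thinning 92.9, 55.1 and 66.9% and 97.1, 69.2 and 71.0%. The thinned intervals over all Vehicle cells, 22.4 to 49.9% at 7 dpi and 52.2 to 68.5% at 28 dpi, did not overlap. In T cell-like cells, which should lack the gene, the share after thinning was at most 4.92%, in Vehicle sham.

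Slc1a3 was found in 21.8, 76.0 and 43.3% of the thinned myeloid-low cells under Vehicle and in 17.3, 42.9 and 55.6% under PLX5622, against at most 0.415% of T cell-like cells. Gjb6 was found in 74.6, 52.0 and 74.6% and in 73.2, 66.7 and 59.3%. Slc1a2 was found in 95.2 to 100% of these cells in every library. The T cell-like share of Slc1a2 was 11.5% in Vehicle sham and at most 8.70% in the other libraries, and the level there was 176 CPM in Vehicle sham. The median number of members found per thinned cell was 7 of 9 in all 6 libraries among myeloid-low cells, and 5 at 7 dpi under Vehicle over all cells, where it was 6 or 7 elsewhere.

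Across the 14 clusters the members differed in how far they were kept to cluster 4. Clusters were made from the same genes, so these levels are a description. Slc7a10, Gjb6, Slc6a11, Slc1a2 and Atp1b2 had 96.4, 93.2, 93.0, 87.2 and 86.7% of all their UMIs in cluster 4. Slc1a2 was at 6549 CPM there over the 6 libraries, at 805 CPM in the oligodendrocyte lineage-like and at 79.4 CPM in the ependymal-like cluster, and the range over libraries of cluster 4 (5494 to 9263 CPM) did not overlap that of the next (204 to 1448 CPM), from which the PLX5622 sham library was left out because it held 4 such cells (14769 CPM). Slc7a10 was at 2568 CPM in cluster 4, and its range of 414 to 3809 CPM did not overlap that of any other cluster. All ranges over libraries leave out libraries with fewer than 20 cells of the cluster. Gjb6 was at 1151 CPM in cluster 4, at 62.7 CPM in the pericyte-like cluster and at 2.21 CPM in the ependymal-like cluster.

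Gja1 and Kcnj10 were shared with the ependymal-like cluster, and Kcnj10 also with the oligodendrocyte lineage-like one. Gja1 had 73.2% of its UMIs in cluster 4 (2097 CPM) and 17.1% in the ependymal-like cluster (343 CPM), and Kcnj10 56.9% (871 CPM) and 23.4% (250 CPM). In the oligodendrocyte lineage-like cluster Kcnj10 was at 226 CPM, with 5.30% of its UMIs. Its library range there (150 to 244 CPM) overlapped the ependymal-like range (221 to 297 CPM). Ependymal-like Gja1 was at 426, 210 and 325 CPM under Vehicle and at 413, 380 and 407 CPM under PLX5622. Against sham this was a log2 ratio of -1.02 (-1.35 to -0.69) at 7 dpi under Vehicle, -0.39 at 28 dpi, and -0.12 and -0.02 under PLX5622. In that cluster too, the 7 dpi Vehicle library was thus the lowest for Gja1 over all cells. Of the 4173 genes compared there, 3.62% were past 2-fold lower at 7 dpi under Vehicle, with a median of -0.163. Cells with myeloid UMIs were not set apart in the ependymal-like cluster, so their part in this was not tested.

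Slc1a3 was the member least tied to cluster 4 after Glul, with 25.5% of its UMIs there (376 CPM), 23.2% in the ependymal-like cluster (240 CPM) and 30.4% in the large microglia-like cluster (56.3 CPM). The library ranges of cluster 4 and the ependymal-like cluster overlapped. Glul had 12.8% of its UMIs in cluster 4 (1318 CPM) and 34.6% in the microglia-like cluster (448 CPM). Its next levels after cluster 4 were 909 CPM in cluster 13, which was not named because 2 of 6 leptomeningeal markers were highest in it, and 634 CPM in the endothelial-like cluster. In microglia-like cells Glul was at 894, 378 and 387 CPM under Vehicle and at 798, 498 and 314 CPM under PLX5622, with log2 ratios over sham of -1.24 and -1.21 and of -0.68 and -1.35. Glul was thus below sham in all 4 injured libraries in microglia-like cells and not below it in any in cluster 4. In microglia-like cells the median over all genes was also below 0, at -0.572 and -0.457 under Vehicle and -0.185 and -0.178 under PLX5622. Genes past 2-fold lower were 24.0, 14.4, 11.9 and 10.1% in the same order. The PLX5622 sham library held 29 microglia-like cells.

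**Figure D4:**
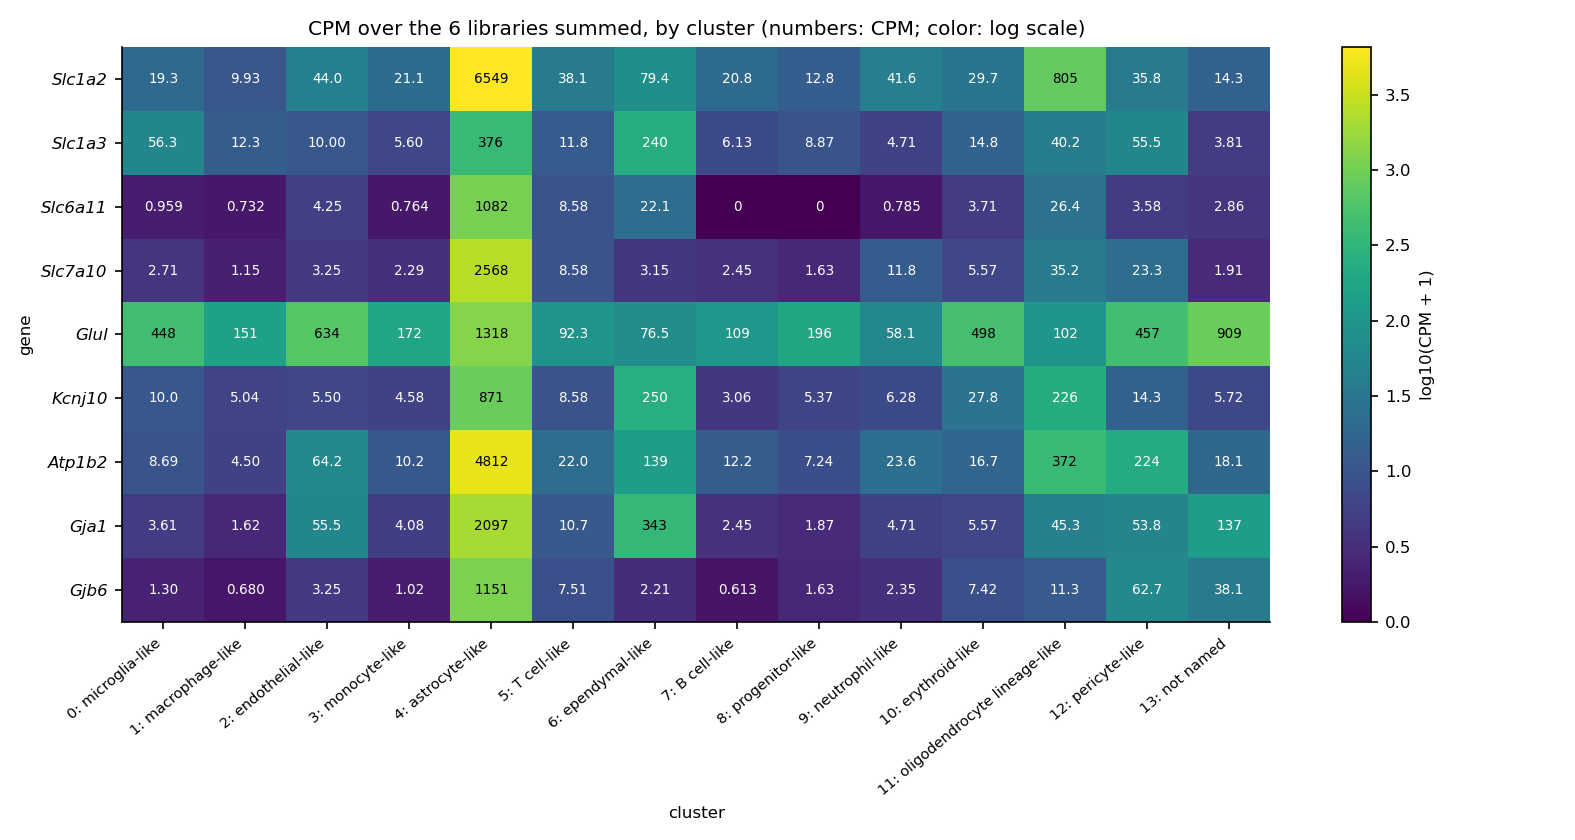
The grid gives the CPM of each member (rows) in each of the 14 clusters (columns) over the 6 libraries summed, as numbers and as color on a log10(CPM + 1) scale. Cluster 4 held the highest level of all 9 members, from 376 CPM for Slc1a3 to 6549 CPM for Slc1a2, and the ependymal-like cluster was next to it for Slc1a3, Kcnj10 and Gja1.

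A list of 42 other astrocyte transport genes, all of them measured, was set beside the members. At 7 dpi under Vehicle 27 of them had at least 50 UMIs in both libraries together, of which 11 were past 2-fold lower and none higher (median -0.88), beside a background of 29.3% lower and 11.9% higher. At 28 dpi it was 4 lower and 1 higher of 29 (median -0.56), both shares below the background of 16.9 and 11.3%. Under PLX5622 3 were lower and 3 higher of 26 at 7 dpi (median 0.12, background 11.4 and 8.76%), and 1 lower and 5 higher of 27 at 28 dpi (median 0.37, background 6.63 and 5.25%). Among myeloid-low cells of the Vehicle libraries 4 were lower and 4 higher of 27 at 7 dpi (median 0.27, background 19.0 and 11.8%), and 1 lower and 3 higher of 28 at 28 dpi (median 0.32, background 7.33 and 5.62%). Among those of the PLX5622 libraries 3 were lower and 3 higher of 26 at 7 dpi (median 0.19, background 10.3 and 7.45%), and 1 lower and 6 higher of 27 at 28 dpi (median 0.41, background 6.32 and 5.42%). Like that of the members, the median of the list turned from below to above 0 under Vehicle.

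Among the potassium and sodium genes of this list, Kcnk1, a potassium leak channel, was past 2-fold lower in all 4 injured libraries over all cells, with log2 ratios of -3.39 and -1.67 under Vehicle and -1.31 and -1.10 under PLX5622. In myeloid-low cells these were -2.14, -0.75, -1.20 and -1.06. Fxyd1, a regulator of the Na,K-ATPase, had ratios of 0.03 and 0.03 under Vehicle and 1.14 and 1.98 under PLX5622 over all cells, and 1.14, 1.06, 1.18 and 2.03 in myeloid-low cells.

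Slc6a9 (GlyT1), a glycine carrier, was at -1.47 and -0.66 under Vehicle and -1.09 and 0.21 under PLX5622 over all cells. In myeloid-low cells it was at -0.40, 0.35, -1.07 and 0.26, so at 7 dpi under Vehicle it was no longer past 2-fold and at 28 dpi its sign turned. Slc2a1, the glucose carrier, was at -2.21, -1.82, -1.12 and -0.38 over all cells. In myeloid-low cells it was at -1.37, -0.95, -1.01 and -0.36, and thus no longer past 2-fold at 28 dpi under Vehicle. Aqp4, the water channel of astrocyte endfeet, was at -0.28 and -0.56 under Vehicle and 0.71 and 0.71 under PLX5622, and at 0.82, 0.46, 0.81 and 0.74 in myeloid-low cells. Gfap, the intermediate filament of reactive astrocytes, was at 119, 1578 and 336 CPM in the Vehicle libraries and at 237, 4799 and 2639 CPM in the PLX5622 libraries over all cells. Among myeloid-low cells it was at 118, 3609 and 688 CPM and then at 237, 4918 and 2718 CPM, so the injured libraries were above their sham by either set of cells.

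Likeness to the members was measured as the Pearson r of log2(CPM + 10) of a gene with that of the summed CPM of the 9 members, over 66 units of 1 cluster in 1 library with at least 20 cells. The units share libraries and clusters, so r is a description. Of 3758 genes with at least 100 UMIs in cluster 4, the 10 most alike outside the members were Ndrg2 (0.91), Pfkm (0.90), Rorb (0.88), Gstm5 (0.88), Cml1 (0.88), Slc1a4 (0.88), Fgfr3 (0.88), Enho (0.88), Acsl3 (0.87) and Appl2 (0.87). The members themselves, each part of that sum, ranged from 0.70 for Glul to 0.88 for Atp1b2. Slc1a4 codes for a carrier of neutral amino acids, and Fgfr3 was among the astrocyte markers fixed for cluster 4.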

How the data were processed

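The authors aligned the single-cell reads and counted UMIs with Cell Ranger 3.0.2 (per the file headers; GRCm38/mm10 per the labels), and used Seurat to filter cells and group them into clusters. Raw counts of UMIs per gene and cell were deposited, with a cluster number for each cell. The cap of 3000 genes per cell that the methods state is not seen in the deposited table, where 716 cells exceed it. Barcodes with fewer than 200 genes are left out of it. Bulk RNA-seq was not analysed here.

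UMIs were summed per cluster and library with Python 3.11.15, numpy 2.4.6, pandas 2.3.3 and scipy 1.17.1, and plotted with matplotlib 3.10.9. CPM have exact Poisson 95% intervals, log2 ratios exact conditional binomial ones, and shares exact Clopper-Pearson ones. The background is the set of genes that reach 50 UMIs over the pair of libraries, and 2-fold is the limit for a gene to be past. A gene at 0 was set to a floor of 3 counts. UMIs in the count table ranged from 2606149 to 35694246 per library, with medians of 2268 to 5127 per cell. The log2 ratio and its interval were tested on simulated Poisson counts, which hold no variation between cells or animals. Thinning was tested on simulated cells, and the other steps were not tested in this way.

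Genes named are the 9 members, the listed transport genes and markers, and the 10 genes most like the members. Of the listed transport genes, 5 are named with values and the others enter counts and medians, and some are not reported here by name. Members and lists were chosen with earlier results of these data known. Doublets were not called, and the alternatives leave out cells with myeloid UMIs or the deepest 10% of cells. edgeR 4.0.16 and DESeq2 1.42.0 (R 4.3.3) gave scaling factors for alternatives only. Clusters were named from markers, and cluster 13 was not named.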

Additional observations from a re-analysis of the deposited data

Results flagged for a closer look

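At 28 dpi, 5 members had log2 ratios over sham of opposite sign in the diets over all cells of cluster 4, with 1 library on each side, and the difference between the diets was not tested. The ratio under Vehicle and then under PLX5622 was -0.21 and 0.58 for Slc1a2, -0.66 and 0.31 for Slc6a11, -0.38 and 0.31 for Kcnj10, -0.86 and 0.18 for Atp1b2, and -0.76 and 0.34 for Gja1. With TMM and DESeq2 scaling factors the Vehicle value of Slc1a2 was 0.07 and 0.06. The opposite signs were not stable. Under the 10 alternatives the sign of the Vehicle value was kept in 2 for Slc1a2, 7 for Slc6a11, 6 for Kcnj10, 8 for Atp1b2 and 7 for Gja1. The PLX5622 value of Kcnj10 kept its sign in 8 of 10 and was -0.073 after thinning and -0.28 without the deepest 10% of cells, while those of the other 4 kept it in all 10. In myeloid-low cells all 5 were above 0 in both diets, and the 28 dpi Vehicle library had 44.5% of its cluster 4 cells above the myeloid limit against 3.74% under PLX5622.

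The barcodes with fewer than 200 genes, which the count table leaves out, also held UMIs of the members. In the Vehicle sham library 121 such barcodes had 76 UMIs of the 9 genes, or 1051 CPM (828 to 1315). In the PLX5622 sham library 102 barcodes had 56 UMIs, or 871 CPM (658 to 1131), and in the 7 dpi PLX5622 library 29 barcodes had 14 UMIs, or 874 CPM (478 to 1467). These barcodes enter none of the values above.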

How the results depend on the processing

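The 10 alternatives each changed 1 choice, and the scaling to 9 other astrocyte markers was chosen after seeing the data. The median log2 ratio of the members over sham at 7 dpi under Vehicle was -0.69. It was -0.40 with edgeR's TMM factors, -0.37 with DESeq2's size factors, -0.16 with cells weighted alike, -0.059 after thinning and -0.20 without the deepest 10% of cells, and turned to 0.55 without cells of 3 or more myeloid UMIs, 0.23 without cells of any and 0.47 with the marker scaling. At 28 dpi under Vehicle -0.66 became -0.37, -0.39, -0.034, -0.37 and -0.20, and turned to 0.41, 0.42 and 0.17, in the same order. Under PLX5622 the median at 7 dpi (0.02) was 0.38 after thinning. At 28 dpi and in sham cords between diets it stayed, in all 10, within the counting interval of the 1 member that sat at the median. The median over the members has no interval of its own here.

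For PLX5622 over Vehicle the median at 7 dpi (1.17) was 0.60 with cells weighted alike, 0.60 after thinning, 0.01 and 0.18 without myeloid-UMI cells by either limit, and 0.029 with the marker scaling. At 28 dpi (0.86) it was 0.43 with TMM, 0.48 with DESeq2's factors, 0.30, 0.44 and 0.25 with cells weighted alike, thinned and without the deepest 10%, 0.009 without cells of any myeloid UMI, and turned to -0.056 without cells of 3 or more and to -0.21 with the marker scaling. There Gja1 turned to -0.009 without cells of 3 or more myeloid UMIs, to -0.21 without cells of any and to -0.043 with the marker scaling, under which Slc7a10 turned to -0.031. Of the other members, Slc6a11 and Atp1b2 kept their sign in all 10 alternatives. Gjb6 kept it in 8, Slc1a2 and Glul in 7, Slc1a3 in 6 and Kcnj10 in 4. The cause was not tested. TMM moved the median of all genes by 0.29 and 0.28 at 7 and 28 dpi over sham under Vehicle, and by -0.36 and -0.42 between the diets.

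The signs of Slc7a10, Gjb6 and Slc1a3 over sham were the same under all 10 alternatives in all 4 comparisons. Their sizes were less stable, and Gjb6 at 7 dpi under PLX5622 (-0.71) was -0.034 after thinning. Without cells of any myeloid UMI, 8 cells remained at 7 dpi under Vehicle, so values there rest on few UMIs. No paired analysis was possible because each condition has 1 library. No replicate was left out, for the same reason.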
